A study of Mus musculus with 6 samples.

Results

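Microexons are very short exons that neurons include and most other cells skip. Srrm4, also called nSR100, and its paralog Srrm3 are neuronal serine/arginine-rich proteins that activate them, and Srsf11 and Rnps1 work with Srrm4 in this task. The Ptbp proteins bind pyrimidine-rich stretches in introns and hold back many neuronal exons; neural progenitors use Ptbp1, and neurons switch to Ptbp2. Srrm4 and Ptbp proteins act on opposite sides at several neuronal exons. One exon that Srrm4 includes is the small exon 4 of Rest, the gene of a repressor of neuronal genes, and its inclusion yields a shorter REST protein with less repressor activity.

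The 9 genes described here are these microexon regulators and their closest relatives, Srrm4, Srrm3, Srrm2, Srrm1, Ptbp1, Ptbp2, Ptbp3, Srsf11 and Rnps1. They were chosen by name, and each was found among the 48709 gene IDs of the count files. RNA-seq profiled the neocortex of C57BL/6 mouse embryos at E15.5 (embryonic day) in 2 groups. The Rest_het group was 3 mice with 1 allele of Rest lacking exon 4, and the WT group was 3 wild-type mice. The labels name separate mice in each group but no litter, Cre driver or inducing agent. The heterozygotes keep a wild-type Rest allele, so the comparison covers a reduced dose of the exon and not its loss.

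Each library held 17835117 to 20753653 reads assigned to genes. Total RNA was copied with an oligo-dT primer and template switching, amplified and cut with a transposase, a method that does not mark strand; 49.9 to 50.1% of reads fell on the forward strand. Rest had 16.7, 19.0 and 18.6 CPM (reads scaled to the library's TMM-adjusted total) in Rest_het and 21.0, 19.7 and 21.1 CPM in WT (log2 fold change -0.19, edgeR adjusted p = 0.49). That count spans the whole gene and does not check the deleted exon. A Cre-ERT2 sequence had 10, 16 and 17 reads in Rest_het and none in WT, and a LacZ sequence had none in Rest_het and 27, 51 and 43 reads in WT. The labels mention neither sequence, and what carries them cannot be told apart from the Rest genotype. Xist, the X-inactivation transcript of female cells, had 778 reads in Rest_het replicate 3 and 764 in WT replicate 2. Each other library had at most 1 Xist read. With Xist as a covariate in the edgeR fit, 18 genes and 0 members were called. Summed levels of 8 neuron markers did not overlap, at 3051 to 3394 CPM in Rest_het and 3687 to 3884 CPM in WT, while those of 8 apical progenitor markers were 1371 to 1476 CPM in Rest_het and 1397 to 1630 CPM in WT. Endothelial and mural markers reached 1225 to 1522 CPM in Rest_het replicates 1 and 2 and were 203 to 310 CPM in the other 4 libraries. Rgs5, a pericyte gene, made up most of that sum, at 930 ± 649 CPM in Rest_het and 183 ± 31.9 CPM in WT (SD, n = 3 each), while the endothelial gene Pecam1 was at 9.43 ± 2.496 CPM in Rest_het and 10.7 ± 2.31 CPM in WT. The choroid plexus markers reached 179 and 373 CPM in Rest_het replicates 1 and 3 and were 2.95 to 57.7 CPM elsewhere. Of 4 tested thalamus and hypothalamus markers 3 were higher in Rest_het at an unadjusted edgeR p under 0.05, beside 6.98% of all genes. None was called. These were Lhx9, Barhl2 and Calb2, with log2 fold changes of 1.05, 1.84 and 0.77 and no overlap, beside 10.4% of all genes. Tcf7l2 had 0.04. The summed markers of this group overlapped, at 135 to 251 CPM in Rest_het and 137 to 231 CPM in WT. Of the markers of 12 cell groups, Gbx2 of thalamus, Folr1 of choroid plexus and Sox10 of the oligodendrocyte lineage were at 0 in some library.

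No member was called different between Rest_het and WT neocortex. All 9 passed the filter on low counts. Of these, 0 of 9 had an adjusted p under 0.05 in edgeR's quasi-likelihood test, in limma-voom or in DESeq2. The background was 0.123% of 15385 genes called by edgeR, 20 of 15385 by limma-voom and 0.822% of 15946 by DESeq2. At an unadjusted p under 0.05, 2 of 9 members passed, Srsf11 and Ptbp2, both with lower values in Rest_het; 11.7% of all genes passed that mark and 4.72% passed it on the lower side. The 3 Rest_het values and the 3 WT values did not overlap for 3 of 9 members, Srrm3 on the higher side and Ptbp2 and Srsf11 on the lower side, where 19.3% of all genes showed no overlap, 10.4% on the higher side and 8.94% on the lower side. Log2 fold changes of Rest_het over WT were above 0 for 4 members and below 0 for 5, with a median of -0.01 and a range of -0.26 to 0.31. The middle of all tested genes lay at 0.0054, with quartiles at -0.14 and 0.20, so every member but Srsf11, Ptbp2, Srrm3 and Rnps1 lay between those quartiles.

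**Figure D1:**
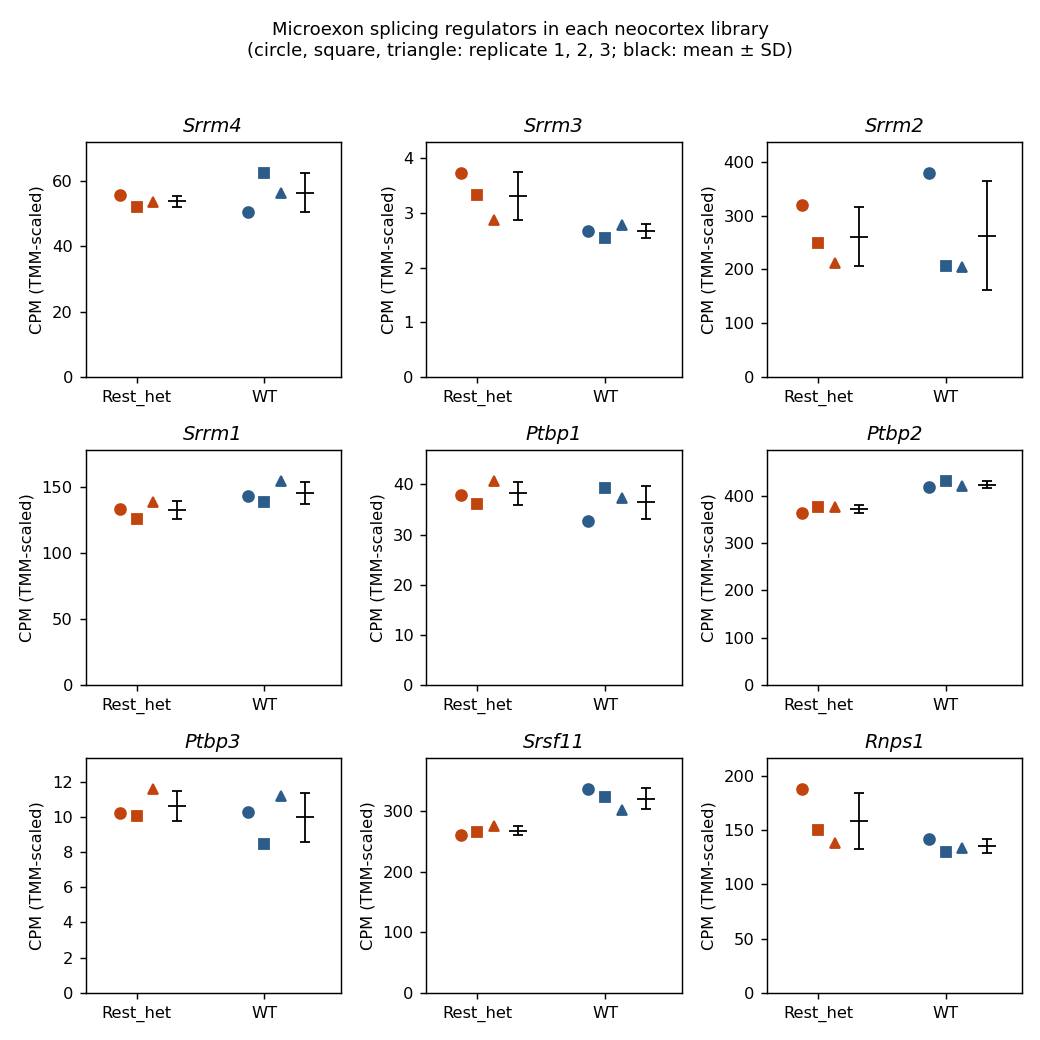
CPM of each of the 9 genes in the 3 Rest_het and 3 WT libraries, one panel a gene on linear axes from 0, with circles, squares and triangles for replicates 1, 2 and 3 and black marks for the mean ± SD. Ptbp2 and Srsf11 points are all lower in Rest_het, Srrm3 points are all higher in Rest_het, and replicate 1 of Srrm2 is high in both groups.

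Srrm4, the main neuronal microexon activator, lies on chromosome 5 (chr5:116439275-116591817, minus strand, GRCm38). It had 55.7, 52.3 and 53.7 CPM in Rest_het libraries, against 50.6, 62.6 and 56.5 CPM in WT libraries. The WT values spread on both sides of the Rest_het values, so the groups overlapped. Its mean was 53.9 ± 1.74 CPM in Rest_het and 56.6 ± 5.97 CPM in WT (SD, n = 3 each), a log2 fold change of -0.07 (SE 0.10, edgeR adjusted p = 0.81). The 95% interval of that change ran from -0.29 to 0.15 on the log2 scale.

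Srrm3, a second activator of microexons found in neurons and endocrine cells, lies on the same chromosome (chr5:135806890-135874772, plus strand, GRCm38). It had 3.73, 3.32 and 2.87 CPM in Rest_het and 2.68, 2.53 and 2.78 CPM in WT, from 54 to 69 reads per Rest_het library and 48 to 56 reads per WT library. Each Rest_het value was above each WT value, with Rest_het replicate 3 at 2.87 CPM and WT replicate 3 at 2.78 CPM the closest pair. The means were 3.31 ± 0.431 CPM in Rest_het and 2.66 ± 0.125 CPM in WT (SD, n = 3 each), with a log2 fold change of 0.31 (SE 0.21, edgeR adjusted p = 0.56). The interval was wide, from -0.16 to 0.79.

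Both activator genes have an annotated exon of microexon size themselves, shown here because it lies in a transcript marked for nonsense-mediated decay in each gene. The first line is the 16-base exon of Srrm4 at chr5:116454673-116454688 on the minus strand, and the second the 20-base exon of Srrm3 at chr5:135867127-135867146 on the plus strand (GRCm38, GENCODE). Capitals mark the 5 bases that both share at the 5′ end.
Srrm4: GAGGAgtccttgcttg
Srrm3: GAGGAagtgccactttattg
In GENCODE, 1 transcript of each gene holds its exon and 1 transcript runs across its position without it. Counts per gene add reads from all transcripts and do not measure how often such an exon is included, which holds for every gene below.

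Srrm1 and Srrm2 encode widely expressed serine/arginine-rich proteins of the spliceosome, also known as SRm160 and SRm300. Srrm1 (chr4:135320484-135353321, minus strand, GRCm38) had 133, 126 and 139 CPM in Rest_het and 143, 138 and 155 CPM in WT. The highest Rest_het value and the lowest WT value were almost level, and the groups overlapped by that pair alone. The means were 132 ± 6.61 CPM in Rest_het and 146 ± 8.22 CPM in WT (SD, n = 3 each; log2 fold change -0.14, SE 0.08, edgeR adjusted p = 0.53).

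Srrm2 (chr17:23790532-23824741, plus strand, GRCm38) varied most among libraries of the 9 members. It had 321, 250.1 and 212 CPM in Rest_het and 379.7, 206 and 204 CPM in WT. Replicate 1 was the highest library in both groups, and the WT libraries held both the highest and the lowest values. The SD of its log2 CPM over the 6 libraries was 0.38, which exceeded that of 73.9% of tested genes, while the SDs of the other 8 members were between 0.10 and 0.20. The log2 fold change was -0.01 (SE 0.26, edgeR adjusted p = 0.99) with an interval of -0.60 to 0.58. Its sign turned with the libraries used: the log2 fold change was 0.35 without WT replicate 1 and 0.12 without Rest_het replicate 3.

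Srsf11, a serine/arginine-rich splicing factor that helps Srrm4 define microexons, lies on chromosome 3 (chr3:158010473-158036639, minus strand, GRCm38). It had 262, 266 and 276 CPM in Rest_het, against 337, 324 and 302 CPM in WT. Every Rest_het library was below every WT library. The means were 268 ± 7.44 CPM in Rest_het and 321 ± 17.7 CPM in WT (SD, n = 3 each). Its log2 fold change was -0.26 (SE 0.08, interval -0.44 to -0.09), with an unadjusted p of 0.0087 and an adjusted p of 0.35 in edgeR and an adjusted p of 0.19 in DESeq2. The difference of the means exceeded the SD of each group but did not pass the test over all genes.

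Rnps1, a protein of the exon junction complex that also takes part in Srrm4-dependent splicing, lies on chromosome 17 (chr17:24414565-24425901, plus strand, GRCm38). It had 188, 150.0 and 138 CPM in Rest_het and 142, 130.01 and 133 CPM in WT. Rest_het replicate 1 stood above the other 5 libraries, and Rest_het replicate 3 lay below WT replicate 1. The log2 fold change was 0.23 (SE 0.12, edgeR adjusted p = 0.48) and came to 0.09 without Rest_het replicate 1. That library also had the highest summed endothelial and mural markers, at 1522 CPM, a sum made up mostly of Rgs5; its part in the Rnps1 value was not tested.

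Ptbp2, the neuronal member of the repressor family, lies on chromosome 3 (chr3:119718742-119784466, minus strand, GRCm38) and was the most abundant of the 9 genes per length. It had 364, 376 and 378 CPM in Rest_het, against 419, 432 and 421 CPM in WT. The groups did not overlap, and the libraries within each lay close together. The means were 373 ± 7.67 CPM in Rest_het and 424 ± 6.64 CPM in WT (SD, n = 3 each). The log2 fold change was -0.19 (SE 0.07, interval -0.35 to -0.03), with an unadjusted p of 0.026 and an adjusted p of 0.38 in edgeR. The summed neuron markers were also lower in all 3 Rest_het libraries, with 4 of 8 of them lower at an unadjusted p under 0.05, beside 4.72% of all genes, and none called. The neuron markers Rbfox3 and Gap43 had log2 fold changes above 0, at 0.13 and 0.23, and summed markers of cortical excitatory neurons overlapped, at 1246 to 1347 CPM in Rest_het and 1293 to 1587 CPM in WT. The part of these markers in the values of Ptbp2 and Srsf11 was not tested. In bulk tissue, a smaller share of neurons among the sampled cells and less RNA per neuron cannot be told apart.

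Ptbp1, the progenitor repressor of neuronal exons, lies on chromosome 10 (chr10:79854427-79864771, plus strand, GRCm38). It had 37.9, 36.0 and 40.7 CPM in Rest_het and 32.7, 39.3 and 37.2 CPM in WT, and the groups overlapped. The means were 38.2 ± 2.35 CPM in Rest_het and 36.4 ± 3.38 CPM in WT (SD, n = 3 each; log2 fold change 0.07, SE 0.10, interval -0.16 to 0.30, edgeR adjusted p = 0.81). Without WT replicate 1, its lowest library, the log2 fold change was -0.0028.

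Ptbp3, also called Rod1, is the family member best known from blood cells and lies on chromosome 4 (chr4:59471868-59549364, minus strand, GRCm38). It had 10.2, 10.03 and 11.6 CPM in Rest_het and 10.3, 8.44 and 11.2 CPM in WT, so the groups overlapped. The log2 fold change was 0.09 (SE 0.15, interval -0.25 to 0.43, edgeR adjusted p = 0.84), and was -0.02 without WT replicate 2.

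**Figure D2:**
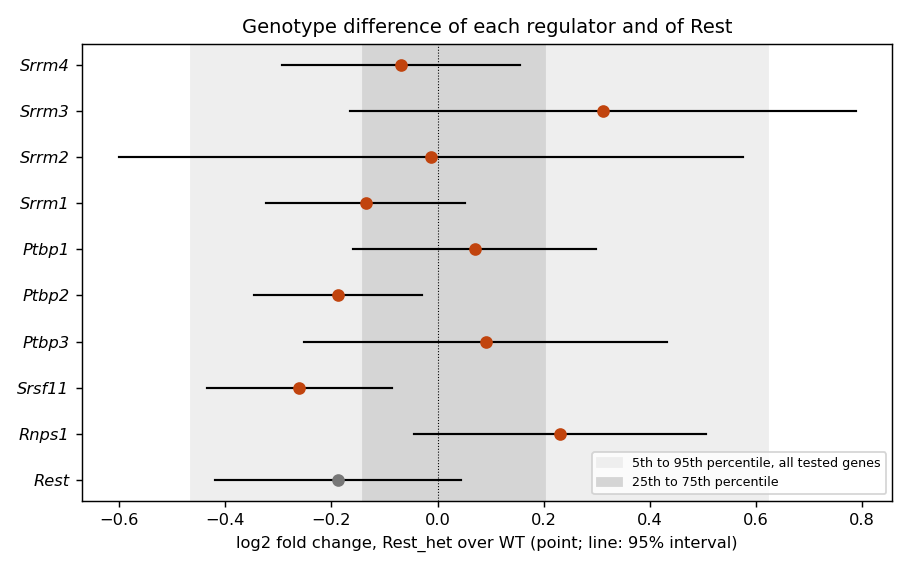
Log2 fold change of Rest_het over WT for each of the 9 genes and Rest from edgeR (points), with lines for the 95% interval and shading for the 5th to 95th and 25th to 75th percentiles of all tested genes. Intervals of Srsf11 and Ptbp2 lie below 0 and those of the other 7 genes and Rest cross it, and Srrm2 and Srrm3 have the widest.

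The Ptbp genes share an exon that is known as a control point for Ptbp1 and Ptbp2. Skipping it in Ptbp1 or Ptbp2 shifts the reading frame and exposes the transcript to decay, and Ptbp1 promotes that skipping in its own transcript and in that of Ptbp2. The exon is 34 bases long in each gene, shown here 5′ to 3′ on the coding strand, with capitals for the 19 bases identical in all 3 genes.
Ptbp1: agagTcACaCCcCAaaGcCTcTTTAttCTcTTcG
Ptbp2: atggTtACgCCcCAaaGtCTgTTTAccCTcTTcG
Ptbp3: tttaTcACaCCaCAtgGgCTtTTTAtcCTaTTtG
They lie at chr10:79862014-79862047 in Ptbp1, chr3:119724612-119724645 in Ptbp2 and chr4:59485339-59485372 in Ptbp3 (GRCm38, GENCODE). Ptbp1 and Ptbp2 share 26 of the 34 bases, Ptbp1 and Ptbp3 share 22, and Ptbp2 and Ptbp3 share 21. In GENCODE, 4 Ptbp1 transcripts hold the exon and 2 skip it, both marked for decay; 3 Ptbp2 transcripts hold it and 3 skip it, 2 of them marked for decay; and 9 Ptbp3 transcripts hold it while none skips it.

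Levels were set side by side as CPM per kilobase of merged exons, averaged over the 6 libraries. Ptbp2 was highest at 43.4, followed by Srsf11 at 34.9, Rnps1 at 28.6, Srrm2 at 20.4 and Srrm1 at 19.0. Ptbp1 at 7.87 and Srrm4 at 6.36 formed a middle level, and Ptbp3 at 1.38 and Srrm3 at 0.466 were lowest. Ptbp2 lay above 93.6% of tested genes on this scale, Srrm4 above 67.5% and Srrm3 above 15.1%. Some neighbours in this order overlapped between libraries. Ptbp2 ranged from 39.6 to 47.1 and Srsf11 from 31.0 to 39.9, and Rnps1 overlapped both Srsf11 and Srrm2. Srrm2 and Srrm1 overlapped and changed places when the longest transcript was used as the length, at 29.6 for Srrm2 and 30.6 for Srrm1. Ptbp1, at 6.90 to 8.58, overlapped Srrm4, at 5.83 to 7.21, across libraries. Within every library Ptbp1 was above Srrm4 per kilobase of merged exons, with a ratio of Srrm4 to Ptbp1 of 0.721 to 0.870. On that length Ptbp2 was also above Srsf11 within every library. Ptbp3, at 1.13 to 1.55, and Srrm3, at 0.395 to 0.582, stood apart from each other and from the rest.

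**Figure D3:**
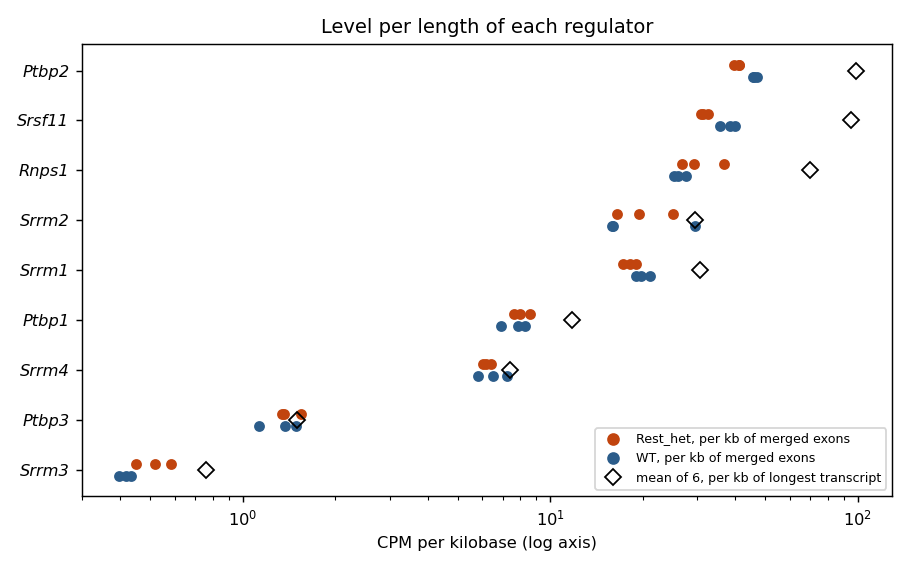
Level of each of the 9 genes as CPM per kilobase of merged exons on a log axis, ordered from highest to lowest, with 1 point a library (Rest_het above WT) and open diamonds for the mean per kilobase of the longest transcript. Points of Ptbp2, Srsf11, Rnps1, Srrm2 and Srrm1 lie between 15.9 and 47.1, and those of Ptbp3 and Srrm3 lie under 1.6.

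Balances between activators and repressors were compared as ratios of reads per kilobase within each library, 4 ratios in all. With 3 libraries against 3, the exact two-sided permutation test cannot give a p under 0.1. The ratio of Ptbp2 to Ptbp1, which rises as progenitors become neurons, was 4.96, 5.40 and 4.79 in Rest_het and 6.63, 5.68 and 5.85 in WT. Every Rest_het library was lower, with a difference of -0.26 on the log2 scale (exact permutation p = 0.1, adjusted over the 4 ratios p = 0.133). The ratio of Srrm4 to Ptbp1, the activator over the repressor, was 0.803, 0.792 and 0.721 in Rest_het and 0.846, 0.870 and 0.829 in WT. Those groups did not overlap either, at a difference of -0.14 (exact permutation p = 0.1, adjusted p = 0.133).

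The ratio of Srrm3 to Srrm4 was 0.0907, 0.0862 and 0.0724 in Rest_het and 0.0716, 0.0548 and 0.0667 in WT. Each Rest_het library was higher, with 0.0724 in Rest_het and 0.0716 in WT the closest pair. Its difference was 0.37 on the log2 scale (exact permutation p = 0.1, adjusted p = 0.133). The ratio of Ptbp3 to Ptbp1 was 0.171, 0.176 and 0.180 in Rest_het and 0.199, 0.136 and 0.190 in WT; the groups overlapped, with a difference of 0.03 (exact permutation p = 1, adjusted p = 1). The first 3 ratios reached the smallest p that the design allows, and none passed 0.05. Among single genes 19.3% showed no overlap in either direction, and that share was not computed for ratios. The ratios share genes, and Ptbp2 and Srrm3 did not overlap on their own either, so the ratios are not separate results.

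**Figure D4:**
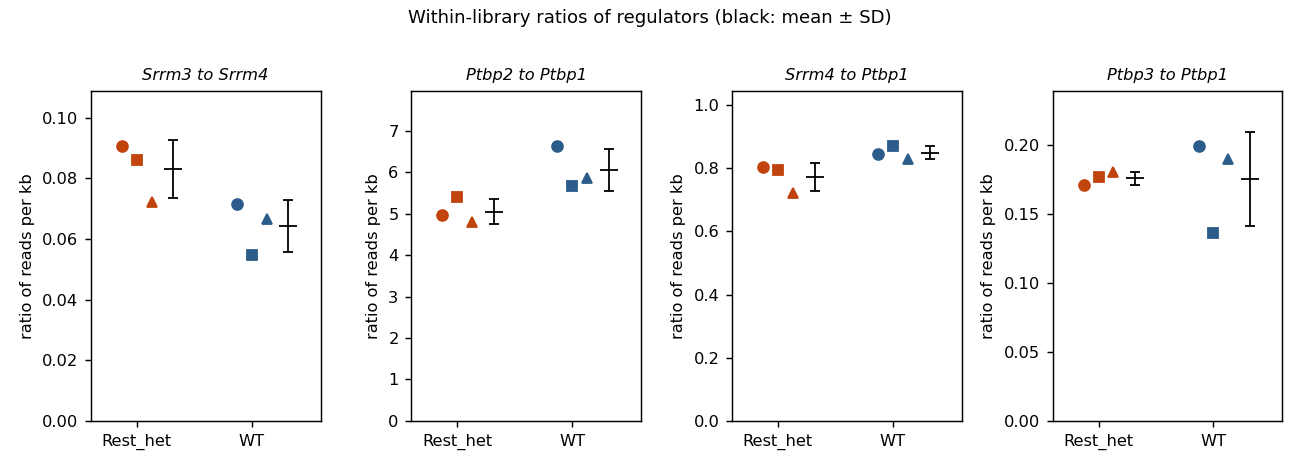
Ratios of reads per kilobase for 4 gene pairs in the 3 Rest_het and 3 WT libraries, on linear axes from 0, with a symbol for each library and black marks for the mean ± SD. Ptbp2 to Ptbp1 and Srrm4 to Ptbp1 are lower and Srrm3 to Srrm4 is higher in all Rest_het libraries, and Ptbp3 to Ptbp1 overlaps.

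Ptbp1 was counted less completely than the other members. The count files hold an unstranded column, used throughout, and a column for each strand. Opposite-strand genes share exon bases with Ptbp1, namely 437 bases with Gm17134, 295 with E130317F20Rik and 251 with Plppr3, a phospholipid phosphatase-related membrane protein gene with 15207 reads of its own. In an unstranded count, STAR sets reads over more than 1 gene aside as ambiguous. Ptbp1 had 701, 650 and 766 unstranded reads in Rest_het and 684, 745 and 723 in WT, while its strand columns together held 986, 965 and 1096 reads in Rest_het and 999, 1085 and 1071 in WT. Without strand information the summed columns give Ptbp1 every read in the shared bases, including those of its neighbours, so they are an upper value.

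Over 6 libraries 1933 reads, or 31.2% of the summed strand columns, were missing from the unstranded column. The share was 28.9 to 32.6% in each library, and 6.56% of tested genes had a larger one. It was at most 2.45% in the other 8 members, with Srrm4 the next, whose antisense neighbour Srrm4os overlaps its exons by 68 bases. With both strand columns summed, the log2 fold change was 0.04 for Ptbp1 and -0.08 for Srrm4. On that count the ratio of Ptbp2 to Ptbp1 was 3.53, 3.64 and 3.35 in Rest_het and 4.54, 3.90 and 3.95 in WT, still without overlap. The ratio of Srrm4 to Ptbp1 was 0.582, 0.550 and 0.513 in Rest_het and 0.592, 0.615 and 0.576 in WT, and the groups then overlapped.

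**Figure D5:**
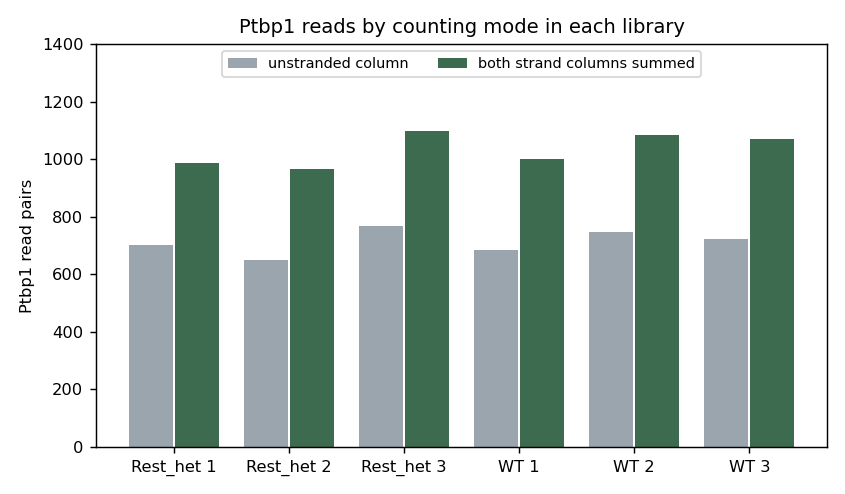
Reads assigned to Ptbp1 in each library, Rest_het on the left and WT on the right, in the unstranded column and in both strand columns summed. The summed columns hold 965 to 1096 reads in Rest_het and 999 to 1085 reads in WT, above the unstranded 650 to 766 in Rest_het and 684 to 745 in WT.

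Srrm4 and Srrm3 are on chromosome 5, as is Rest, and chromosome 5 held 6 of the 19 genes that edgeR called. The share of all tested genes on chromosome 5 is not given here. The chromosomes of the other 7 members, 3, 4, 10 and 17, held none. The called gene nearest to Srrm4 was Git2, which encodes a GTPase-activating protein for small Arf GTPases, at 1.66 Mb. Git2 averaged 198 ± 6.31 CPM in Rest_het and 58.1 ± 8.32 CPM in WT (SD, n = 3 each; log2 fold change 1.77, edgeR adjusted p = 0.00082). Nearest to Srrm3 was Zkscan1, a zinc-finger gene 2.21 Mb away, at 119.97 ± 5.32 CPM in Rest_het and 198 ± 1.97 CPM in WT (SD, n = 3 each; log2 fold change -0.72, edgeR adjusted p = 0.012). Within 2 Mb of Srrm4, 19 of 63 tested genes had an unadjusted p under 0.05, a share of 30.2%, and within 2 Mb of Srrm3 16 of 81 did, a share of 19.8%, beside 11.7% over all genes. The called gene nearest to Rest was 29.8 Mb away. Within 2 Mb of Rest 3 of 18 tested genes had an unadjusted p under 0.05, a share of 16.7%, and 0 were called. Whether the neighbourhood of Srrm3 bears on its values was not tested.

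Related genes were read as 8 lists of splicing factors and hosts of regulated exons, with 90 different genes, 88 of them tested. None was called by edgeR, where 0.065% of all genes were called higher and 0.0585% lower; among the genes named here DESeq2 called U2af2, on the higher side, beside 0.464% of all genes higher and 0.357% lower. Counting members list by list, 2 were higher and 11 lower at an unadjusted p under 0.05, against 6.98% and 4.72% of all tested genes. Of all 15385 tested genes, 7832 had log2 fold changes above 0 and 7553 below 0.

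The 7 factors that recognise 3′ splice sites, where Ptbp proteins also bind, had a median log2 fold change of 0.29 in Rest_het over WT. Of these, 6 were above 0 and 1 below; Rest_het and WT did not overlap for 4 on the higher side and for Sf3b1, a core U2 snRNP protein, on the lower side (log2 fold change -0.15, edgeR adjusted p = 0.47), beside 10.4% of all genes on the higher side and 8.94% on the lower side. U2af2 encodes the large U2AF subunit, which binds the pyrimidine tract and competes there with Ptbp1. It had 44.4, 55.7 and 42.2 CPM in Rest_het, against 22.8, 28.6 and 33.4 CPM in WT. Its means were 47.5 ± 7.27 CPM in Rest_het and 28.3 ± 5.27 CPM in WT (SD, n = 3 each). The log2 fold change was 0.75 (SE 0.16), with an adjusted p of 0.32 in edgeR, 0.0080 in DESeq2 and 0.016 in edgeR with no filter on low counts; over all alternatives it ranged from 0.0080 to 0.57.

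Among 11 hnRNP proteins and corepressors that act with Ptbp proteins, 8 were below 0 in Rest_het over WT, 5 of them without overlap, and 4 had an unadjusted p under 0.05 on the lower side. Of all tested genes, 8.94% showed no overlap on the lower side and 4.72% had such a p. The median was -0.13. Hnrnph1, which binds G-rich sites near exons, had 238, 259 and 264 CPM in Rest_het and 291, 311 and 298 CPM in WT (log2 fold change -0.24, edgeR adjusted p = 0.36). Matr3, a nuclear matrix protein that binds Ptbp1, had 664, 619 and 681 CPM in Rest_het and 777, 776 and 712 CPM in WT (log2 fold change -0.21, edgeR adjusted p = 0.40).

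Among all tested genes 4.72% were lower at an unadjusted p under 0.05, the background for each list in this paragraph. The 13 SR proteins that join Srsf11 in exon definition had a median of -0.09, with 1 lower at that mark. That was Srsf3, at 433 ± 10.5 CPM in Rest_het and 493 ± 19.0 CPM in WT (SD, n = 3 each; log2 fold change -0.19, edgeR adjusted p = 0.40). Tra2b, an activator of exons with purine-rich enhancers, was at 362 ± 36.7 CPM in Rest_het and 414 ± 10.5 CPM in WT (SD, n = 3 each; log2 fold change -0.19, edgeR adjusted p = 0.44). Of 7 kinases that phosphorylate SR proteins 6 were tested, with a median of -0.12 and 1 lower at an unadjusted p under 0.05, Clk4 (log2 fold change -0.23, edgeR adjusted p = 0.36); Srpk1 was at -0.16 (edgeR adjusted p = 0.45). Of the 9 exon junction proteins and Rnps1 partners, Upf3b, a factor in nonsense-mediated decay, was lower at an unadjusted p under 0.05 (log2 fold change -0.24, edgeR adjusted p = 0.40), and Casc3, a core exon junction protein, had 0.28 (edgeR adjusted p = 0.44). Their median was -0.0043.

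Other neuronal splicing regulators, 14 of 15 tested, had a median of -0.06 with 1 gene on each side at an unadjusted p under 0.05. Of all tested genes, 6.98% were higher and 4.72% lower at that mark. Rbfox1, which binds GCAUG sites beside neuronal exons, had 77.5, 70.9 and 71.0 CPM in Rest_het and 87.4, 118 and 83.0 CPM in WT (log2 fold change -0.39, edgeR adjusted p = 0.36). Nova1, which binds YCAY repeats, had 22.3, 30.3 and 14.0 CPM in Rest_het and 17.2, 12.4 and 12.4 CPM in WT (log2 fold change 0.66, edgeR adjusted p = 0.41), and its groups overlapped.

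Of 21 genes known to host neural microexons, 19 have annotated exons of at most 27 bases, 40 such exons in all. A few are shown for what Srrm4 acts on, on the coding strand. Eif4g1 and Eif4g3, translation initiation factors, carry paralogous microexons with 16 of 21 bases identical, which the capitals mark; Kdm1a encodes the LSD1 demethylase that works with REST, Src a tyrosine kinase, Itsn1 an endocytic scaffold, Mef2c a transcription factor and Cpeb4 a translation regulator.
Eif4g1: GGAGGATTCAGgtCtcTgCAG
Eif4g3: GGAGGATTCAGacCcaTcCAG
Kdm1a: gacactgtcaag
Src: gaggaaggtggatgtcag
Itsn1: gttaaaggggaatgg
Mef2c: tctgaggatgtggatctgctgttg
Cpeb4: caaggacttatgggcgaaggagag
In the same order they lie at chr16:20674786-20674806, chr4:138095909-138095929, chr4:136563438-136563449 on the minus strand, chr2:157458843-157458860, chr16:91842628-91842642, chr13:83654598-83654621 and chr11:31918801-31918824 (GRCm38, GENCODE; plus strand unless stated). These exons are 12 to 24 bases long, and each length is a multiple of 3, so inclusion keeps the reading frame.

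Gene-level values of these hosts had a median log2 fold change of -0.05. Of the 21 hosts 14 were below 0, beside 7553 of all 15385 tested genes. At an unadjusted p under 0.05, 2 were lower, beside 4.72% of all tested genes on that side. Mef2c had 175, 134 and 150.4 CPM in Rest_het and 213, 191 and 182 CPM in WT (log2 fold change -0.35, edgeR adjusted p = 0.36).

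The 8 genes with exons that Ptbp proteins repress had a median log2 fold change of 0.0043. Bak1, an apoptosis effector gene whose exon is repressed in progenitors and included in neurons to lower the protein, had a value of 0.47 on that scale (edgeR adjusted p = 0.54). Its level was low, at 1.85 ± 0.269 CPM in Rest_het and 1.32 ± 0.330 CPM in WT (SD, n = 3 each), and its groups overlapped.

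The genes most like 3 of the members across the 6 libraries were found among genes within 4-fold of the same mean CPM, by the root mean square (RMS) difference of log2 CPM after centring. The smallest of many such distances lie below the median by selection, so the medians give a scale and no test. For Srrm4 these were Psmb3, a proteasome subunit, Grpel2, a mitochondrial co-chaperone, and Rfc3, a clamp loader of DNA replication, at an RMS of 0.023, 0.024 and 0.026 against a median of 0.157 over 6500 genes. For Srrm3 they were Gsk3a, a kinase, AU021092 and Ebpl, at 0.053, 0.055 and 0.055 against a median of 0.336 over 6739 genes. Srrm3 had only 48 to 69 reads per library, so counting error enters the pattern that was matched. For Ptbp2 they were Tardbp, which encodes the splicing repressor TDP-43, Cse1l, a nuclear export factor, and Psmc6, a proteasome ATPase, at 0.013, 0.020 and 0.022 against a median of 0.123 over 1583 genes. Tardbp had 128, 131 and 134 CPM in Rest_het and 148, 149 and 149.5 CPM in WT.

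Promoter windows of 300 bases, from 250 before to 50 after the start (RefSeq, GRCm38.p6), were given for 7 members as 9 windows and searched on both strands for the left and right parts of the site that REST binds. CAGCACC was in 0 of the 9 windows and in 7.14% of all 32851 windows. GGACAG was in 3 windows, of Ptbp2 and Srsf11, and in 22.2% of all windows. These are matches of letters and no measure of REST binding.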

How the data were processed

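Reads were aligned with STAR 2.5.2a to GRCm38.p4, per the submitters' processing notes, and the authors deposited raw read counts per gene for each library, unstranded and for each strand. A deposited table of 18995 genes held normalized signal, which equalled the counts divided by 1 factor per library (relative tolerance 1e-06); per the submitters' processing notes DESeq2 was used. The annotation release behind the counts is not given in the sources used here. Unassigned reads stayed out of library sizes: 21.4 to 26.9% fell in no feature, 2.54 to 2.85% were ambiguous, 6.29 to 7.48% multimapping and 1.21 to 1.45% unmapped.

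Unstranded counts were scaled by TMM in edgeR 4.0.16 (R 4.3.3), filtered with filterByExpr (count minimum 10, total 15) and fitted by quasi-likelihood on genotype, with Benjamini-Hochberg adjustment over 15385 genes and a threshold of 0.05; the fit was tested on simulated data. DESeq2 1.42.0, limma 3.58.1, other scalings, filters and left-out libraries were alternatives. Symbols came from GENCODE M21 (48349 of 48709 IDs), as did lengths, exons and sequences. Ratios used exact permutation (scipy 1.17.1); the plots used matplotlib 3.10.9. Mice are the replicates, and p-values set a difference against the spread between these mice and counting error together. Intervals are 95%, from the fit, and cover both the spread between mice and counting error. The members and lists were chosen with earlier results of these data known. Named genes are the members, Rest, the genes called or the 2 with the lowest p in each list, the called gene nearest to a member, and the 3 genes most like Srrm4, Srrm3 and Ptbp2; some genes that this rule names are not reported here.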

Additional observations from a re-analysis of the deposited data

Results flagged for a closer look

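A signal outside the column used for the comparisons was seen for Ptbp1: 1933 reads over the 6 libraries were in the strand columns and not in the unstranded column. They amount to 31.2% of the summed strand columns, at 28.9 to 32.6% in each library. Reads of opposite-strand neighbours can be among them, so the summed columns are an upper value for Ptbp1.

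Reads of engineered sequences that the labels do not mention were the other signals outside the comparisons. Cre-ERT2 had 43 reads in the 3 Rest_het libraries and 0 in the WT libraries, and LacZ had 0 reads in the Rest_het libraries and 121 in the 3 WT libraries.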

How the results depend on the processing

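Members called stayed at 0 in all 17 alternatives, with 1 to 3 members at an unadjusted p under 0.05 and a lowest member adjusted p of 0.19 (DESeq2). Genes called numbered 19 in the main fit. They came to 131 with DESeq2, 107 with no filter and 6 with the replicate block. With 1 library left out they ranged from 12 (without WT replicate 1) to 35 (without WT replicate 2). The fit without Rest_het replicate 3 called 32. Same-numbered libraries showed little likeness over all genes, with correlations of 0.011, 0.037 and -0.144. With so few libraries that does not exclude a shared litter or handling. The block called no member, as in every other fit. Srrm2 (-0.01) turned to 0.029 with limma-voom, 0.031 with the replicate block and 0.025 with limma on the deposited values at either pseudocount, 1 or 10. With 1 library left out it ranged from -0.19 to 0.35, with 0.02 without Rest_het replicate 2, 0.12 without Rest_het replicate 3 and 0.35 without WT replicate 1. Ptbp1 was -0.0028 without WT replicate 1 and Srrm4 0.0090 without WT replicate 2; Ptbp3 ranged from -0.016 without WT replicate 2 to 0.18 without WT replicate 3. The log2 ratio of Ptbp3 to Ptbp1 ranged from -0.15 to 0.13 with 1 library left out. The strand-summed counts were an alternative chosen after seeing the data. The causes were not tested. Srrm3 had the fewest reads of the members, 48 to 69 per library.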
